A study of Drosophila melanogaster with 12 samples.

Results

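Actins are the globular proteins that polymerise into the filaments of muscle and of the cytoskeleton, and Drosophila melanogaster has 6 genes for them. Act5C and Act42A are the cytoplasmic actins, whereas Act57B, Act79B, Act87E and Act88F are muscle actins expressed in different muscles and at different stages. In the sarcomere, the contractile unit, actin forms the thin filament together with tropomyosin and the troponins, and myosin thick filaments pull on it. The actin genes were taken as the probe sets that the probe annotation gives to 1 of these 6 symbols, with the array's control probe sets set aside. This found 3 probe sets, 1 each for 3 of the 6 genes, among 13966 probe sets and the 10844 genes that the annotation named. The 3 are Act79B (NCBI gene 40444), an actin of thoracic and leg muscles, Act87E (NCBI gene 48632), an actin of larval and adult body muscles, and Act88F (NCBI gene 41885), the actin of the indirect flight muscle. Act5C, Act42A and Act57B were not analysed here.

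The probe sets of Act79B and Act87E carry the manufacturer's suffix for probes shared within a gene family, and that of Act88F does not. The coding sequences of the actins are nearly alike, so the signals under Act79B and Act87E may hold RNA of other actin genes and are uncertain as measures of single genes. Act79B lies on the left arm of the third chromosome, and Act87E and Act88F lie on its right arm.

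All samples were heads of adult y w flies, which carry mutations in yellow, needed for dark cuticle, and in white, needed for eye pigment. Their age and sex are not stated in the labels. The flies had lived for 3 days in 12 h of light and 12 h of darkness. The constant darkness day (DD) was the second day of sampling and followed the light/dark day (LD), and each was sampled at hours 2, 6, 10, 14, 18 and 22 from lights-on or subjective lights-on. Each time point was 1 array made from 100 to 200 pooled heads, sieved from broken frozen flies, so that there were 6 arrays in DD and 6 in LD and no second array of any time point. Nothing in the labels says that the pools came from separate cultures. The p-values therefore measure the spread of these arrays around each fitted model. That spread may be technical and also holds any change between hours that the model leaves out. Darkness and day of sampling cannot be told apart. The deposited values are log2 levels, on which 1 unit is a doubling, and their precision is limited by the number of arrays.

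Photoreceptor markers were high (Arr2 and trp, mean 10.66 to 11.22 in DD and 10.94 to 11.31 in LD), with 2 of 5 listed markers measured. Of the 5 testis and accessory gland markers, Acp26Aa, Acp36DE and dj lay between 2.26 and 3.10 on every array, Mst84Da between 5.01 and 5.54 and Mst87F between 6.60 and 6.85, where the median probe set had a mean of 5.39. A measure of RNA completeness differed between arrays. This was the signal from the 5′ end minus that from the 3′ end, averaged over 3 control transcripts, those of actin, GAPDH and eIF4a. The signal was lowest at DD hours 18 (−2.51), 22 (−2.45) and 14 (−1.89) and at LD hour 2 (−2.02). It lay between −1.64 and −1.51 on the other DD arrays and between −1.76 and −1.52 on the other LD arrays. Several results resting on the 4 arrays of lowest mean, below called least complete, are given with and without them, where a fit allowed it. Omitting them leaves no DD night array.

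The first question was how each actin transcript ran through the days. On the LD day all 3 had their lowest level at hour 2, higher levels at each later light hour, and their maximum at hour 14, just after lights-off. On the DD day the highest level of each was at hour 6. For Act88F the DD values were lower than the LD values at every hour.

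Act88F had log2 levels of 5.64, 5.84, 5.33, 5.32, 5.38 and 5.57 at DD hours 2 to 22, against 5.85, 6.36, 7.16, 7.93, 6.88 and 5.94 at LD hours 2 to 22. The 6 DD arrays lay in a narrow band below all 6 LD arrays, although the highest DD value (5.838) and the lowest LD value (5.845) nearly touched. Of all probe sets 0.437% had every DD array below every LD array. Act88F spanned 0.51 log2 in DD, where 3692 probe sets spanned more, and 2.08 log2 (4.23-fold) in LD, where 61 did.

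Act79B had log2 levels of 10.81, 11.25, 10.41, 10.19, 9.26 and 9.54 at DD hours 2 to 22, against 10.23, 11.29, 12.06, 12.32, 11.79 and 10.89 at LD hours 2 to 22. The values of the regimes overlapped, since the DD arrays of hours 2 and 6 were as high as the lower LD arrays. Over all 12 arrays the level of Act79B spanned 3.07 log2 (8.39-fold), a span exceeded by 21 probe sets, while the median span was 0.45.

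Act87E had log2 levels of 10.95, 11.36, 10.79, 10.003, 9.81 and 9.94 at DD hours 2 to 22, against 10.09, 11.04, 11.70, 12.07, 11.39 and 10.99 at LD hours 2 to 22. Here too the regimes overlapped, and the lowest LD array, hour 2, stood just above the 3 DD night arrays. Act87E spanned 2.26 log2 (4.79-fold) over the 12 arrays, a span exceeded by 81 probe sets.

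**Figure D1:**
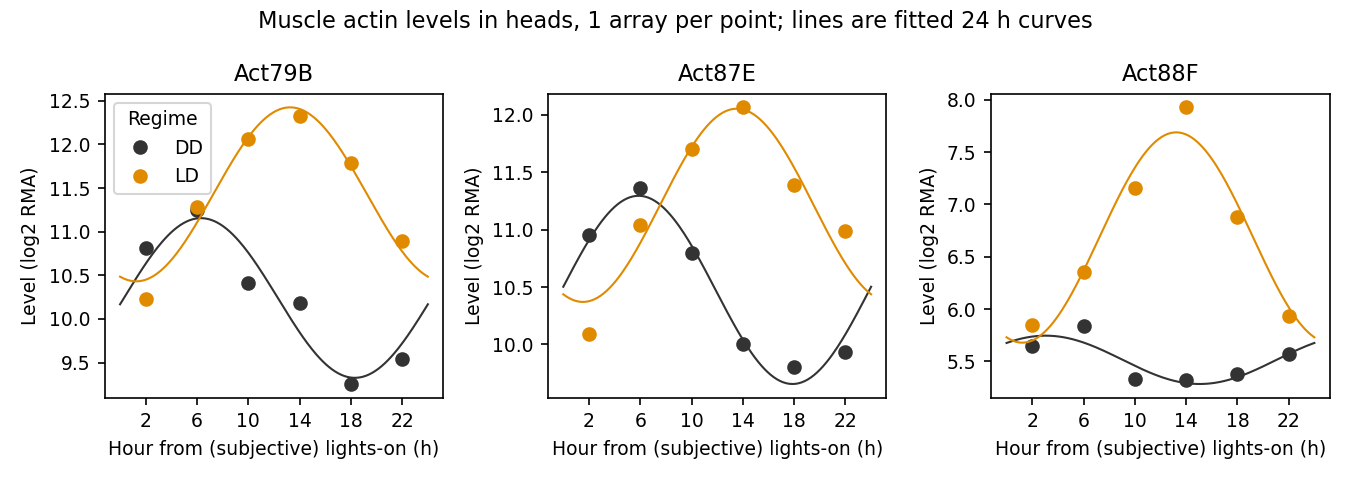
Log2 level of Act79B, Act87E and Act88F (vertical axes, a separate scale for each) against the hour from lights-on or subjective lights-on, with 1 array per point, DD in dark grey and LD in orange, and the fitted 24 h curves as lines. In LD each gene is highest at hour 14, and in DD the points of Act88F stay between 5.32 and 5.84.

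A curve of 24 h was then fitted to each day, with 1 estimate of the spread for both (limma, 6 residual degrees of freedom). In LD the curve of Act88F passed the test. Its amplitude, from mean to peak, was 1.00 ± 0.09 log2 (SE, 12 arrays), which puts the peak 4.02-fold above the trough, and the curve was highest at hour 13.2 (limma, Benjamini-Hochberg adjusted p = 0.0155 over 13966 probe sets). In LD, 1 of the 3 actin probe sets was called, where 0.0501% of all probe sets were. The LD curves of Act79B (1.00 ± 0.13 log2, 3.98-fold, hour 13.3) and Act87E (0.84 ± 0.11 log2, 3.21-fold, hour 13.5) missed the threshold (limma, adjusted p = 0.102 for both). All 3 had an unadjusted p under 0.05, as had 5.66% of probe sets. The call of Act88F was lost without LD hour 14 (adjusted p = 0.112), LD hour 18 (0.0550), LD hour 22 (0.105) or DD hour 22 (0.0507), with amplitudes of 0.84 to 1.03 log2. When RNA completeness entered the fit, as the 5′ minus 3′ signal, the call went too (1.02 log2, adjusted p = 0.0693). It was likewise lost when the 4 least complete arrays were omitted (1.10 log2, adjusted p = 0.180). Only 1 of these is an LD array, and without that array alone the amplitude was the same and the call was kept (limma, adjusted p = 0.0221). The others are DD arrays, which bear on the LD test through the estimate of the spread. Omitting all 4 therefore did not test whether the LD curve depends on RNA completeness. That omission gave amplitudes of 0.85 log2 for Act79B and 0.65 log2 for Act87E (limma, adjusted p = 0.127 and 0.513). Conversely, without LD hour 6 all 3 actin probe sets were called, and without DD hour 10 or DD hour 14 both Act79B and Act88F were.

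In DD no actin curve passed, and no probe set of the array did (limma, 0% called). At an unadjusted p under 0.05 stood 2 of the 3 actins and 11.5% of probe sets. Act79B had an amplitude of 0.92 ± 0.13 log2 with the peak at hour 6.30, and Act87E had 0.82 ± 0.11 log2 at hour 5.87 (limma, adjusted p = 0.171 for both). Without LD hour 2 or LD hour 22 Act87E passed (adjusted p = 0.0275 and 0.0426) at an unchanged amplitude. With the completeness signal in the fit the DD amplitudes were 0.57 log2 for Act79B and 0.59 log2 for Act87E (adjusted p = 0.9998 for both). Act88F had 0.23 ± 0.09 log2 at hour 3.05 (adjusted p = 0.504). The fitted DD peaks of Act79B and Act87E thus stood in the subjective day and their LD peaks early in the night.

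The change of the curve between the days was tested directly. As vectors, the DD curve minus the LD curve measured 1.40 ± 0.15 log2 for Act87E, 1.21 ± 0.13 for Act88F and 1.51 ± 0.18 for Act79B. None passed (limma, adjusted p = 0.107, 0.107 and 0.115), where 0% of probe sets were called. All 3 had an unadjusted p under 0.05, as had 9.96% of probe sets. Ranked by p over all 13966 probe sets, Act87E stood at 1, Act88F at 2 and Act79B at 6. Without LD hour 6, Act87E (adjusted p = 0.0392) and Act88F (0.0445) passed, and without LD hour 2 or LD hour 22 Act87E did (0.0314 and 0.0186). Adjusted for RNA completeness, the 3 differences were 1.21, 1.24 and 1.25 log2 for Act87E, Act88F and Act79B (adjusted p = 0.750, 0.750 and 0.812). A single curve over both days with a common phase called none of the 3 (limma, amplitudes of 0.40 to 0.59 log2, adjusted p = 0.967 for each), where 0.0215% of probe sets were called. None of the 3 had an unadjusted p under 0.05, against 4.68% of probe sets. With the 4 least complete arrays omitted, the common amplitudes were 0.36 log2 for Act79B, 0.32 for Act87E and 0.55 for Act88F (limma, adjusted p = 0.975 for each). No DD night array remained in that fit.

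**Figure D2:**
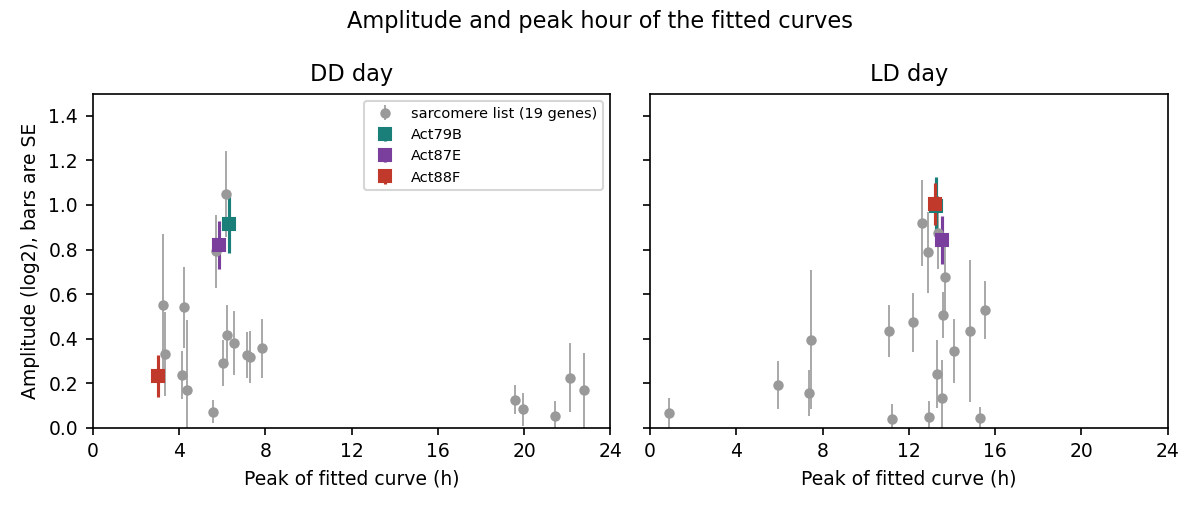
Amplitude in log2 units (vertical axis, bars are SE) against the peak hour of the fitted 24 h curve on the DD day (left) and the LD day (right), for the 3 actins as squares and the 19 measured genes of a sarcomere list as grey circles. In LD all 3 actins lie at hours 13.2 to 13.5, and in DD Act79B and Act87E lie near hour 6 while Act88F has an amplitude of 0.23.

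Hour by hour, the gap between the days was widest after midday. At hour 14 Act88F had 5.32 in DD and 7.93 in LD, a difference of −2.60 log2 (6.08-fold lower in DD), and 7 of the 13966 probe sets had a more negative difference at that hour. At hour 18 Act79B had 9.26 in DD and 11.79 in LD, a difference of −2.54 log2 (5.80-fold lower in DD), with 3 probe sets more negative. Act87E differed most at hour 14, with 10.003 in DD and 12.07 in LD (−2.06 log2, 4.18-fold lower in DD). Early in the day the order was the other way for 2 genes. At hour 2 Act87E had 10.95 in DD and 10.09 in LD (0.87 log2), and Act79B had 10.81 in DD and 10.23 in LD (0.58 log2), where the LD array of that hour was 1 of the 4 with low 5′ signal. The DD arrays of hours 14 and 18, on which the largest deficits rest, are also among these 4. At hour 10, where neither array is among them, the DD minus LD difference was −1.82 log2 for Act88F, −1.65 for Act79B and −0.91 for Act87E. These single-hour differences rest on 1 array each and have no replicate check.

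**Figure D3:**
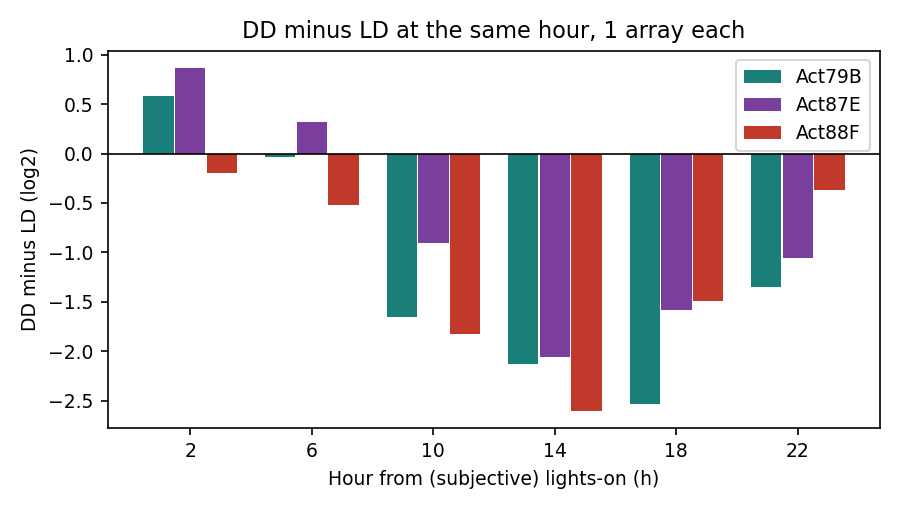
DD minus LD difference in log2 units at each hour, with 1 DD and 1 LD array behind each bar and the genes by colour. Bars run down to −2.60 for Act88F at hour 14 and up to 0.87 for Act87E at hour 2.

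Averaged over the day, Act88F had a level of 5.52 ± 0.21 in DD and 6.68 ± 0.80 in LD (SD, n = 6 arrays each). The difference, fitted beside a cosine and a sine common to both days, was −1.17 ± 0.27 log2 (SE), 2.25-fold lower in DD. It did not pass (limma, adjusted p = 0.294). Any change of the curve between the days counts as spread in this fit and widens the errors of all 3 actins. Act88F was lower in DD at 6 of 6 hours, which held for 2.39% of all probe sets. Act79B averaged 10.24 ± 0.75 in DD and 11.43 ± 0.79 in LD (SD, n = 6 each), a difference of −1.19 ± 0.34 log2 (limma, adjusted p = 0.524), and was lower in DD at 5 of 6 hours (5 or more for 12.7% of probe sets). Act87E averaged 10.48 ± 0.64 in DD and 11.21 ± 0.68 in LD (SD, n = 6 each), a difference of −0.74 ± 0.31 log2 (limma, adjusted p = 0.689), and was lower in DD at 4 of 6 hours. No actin was called in this comparison, where 0.15% of all probe sets were, and all 3 had an unadjusted p under 0.05, as had 6.82%. The mean of the fat body markers, 3 of 4 measured, was also lower in DD. It was 8.49 ± 0.09 in DD (8.37 to 8.61) and 8.90 ± 0.24 in LD (8.58 to 9.25). Among these markers the storage protein gene Lsp2 had 8.84 in DD and 10.03 in LD, and Fbp1 had 6.86 and 7.01. The marker apolpp went the other way, with 9.75 in DD and 9.65 in LD. Their part in the actin difference was not tested. In bulk RNA of this kind, fewer muscle cells and less actin RNA per cell cannot be told apart. With the 4 least complete arrays omitted the differences were −0.999 for Act88F, −0.73 for Act79B and −0.27 for Act87E (limma, adjusted p = 0.681, 0.742 and 0.895). That omission leaves DD only hours 2, 6 and 10, without the hour of the widest gap for each gene. RNA completeness and hour cannot be told apart in it.

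Day hours (2, 6 and 10) were next set against night hours (14, 18 and 22) within each regime, in a fit of 4 groups of 3 arrays. The 3 arrays of a group are different hours, so change from hour to hour counts as spread in these SDs, errors and p-values. In DD, all 3 subjective day arrays were above all 3 subjective night arrays for Act79B and for Act87E, a separation shared by 13% of all probe sets. Act87E had 11.04 ± 0.29 in the DD day and 9.92 ± 0.10 in the DD night (SD, n = 3 each), a difference of 1.12 ± 0.35 log2 that did not pass (limma, adjusted p = 0.128). Act79B had 10.82 ± 0.42 in the DD day and 9.66 ± 0.48 in the DD night, a difference of 1.16 ± 0.46 log2 (limma, adjusted p = 0.211). Act88F had 5.61 ± 0.25 in the DD day and 5.43 ± 0.13 in the DD night, a difference of 0.18 ± 0.42 log2 (limma, adjusted p = 0.874). None of the 3 was called, where 0.938% of probe sets were, and 2 of the 3 had an unadjusted p under 0.05, as had 18.2%. Without LD hour 2 Act87E passed (adjusted p = 0.0348). The 3 DD night arrays are also 3 of the 4 arrays with the lowest mean 5′ minus 3′ signal, so that the contrast cannot be taken without them. The mean levels of some other marker lists also separated in this contrast, which need not hold for each marker. Among the neuron markers, brp stayed between 6.091 and 6.285 on all DD arrays, and elav ranged from 4.109 to 5.694. The mean of the 4 measured neuron markers (of 5) lay between 4.92 and 5.17 in the DD day and between 5.50 and 5.72 in the DD night, and that of the 2 photoreceptor markers between 11.08 and 11.22 in the DD day and between 10.66 and 10.90 in the DD night. Their part in the actin differences was not tested. With the completeness signal in the fit the differences were 0.47 for Act87E, 0.0021 for Act79B and −0.16 for Act88F.

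In LD the day and night arrays of all 3 genes overlapped, because hour 10 of the day was high and hour 22 of the night was low. All 3 night arrays stood above all 3 day arrays for 4.68% of probe sets. The day minus night differences were −0.54 ± 0.35 log2 for Act87E, −0.48 ± 0.46 for Act79B and −0.46 ± 0.42 for Act88F (limma, adjusted p = 0.945 to 0.976, where 0.00716% of probe sets were called and 5.76%, but none of the 3, had an unadjusted p under 0.05). The DD difference less the LD difference was 1.66 ± 0.50 for Act87E, 1.64 ± 0.65 for Act79B and 0.64 ± 0.60 for Act88F. None passed (limma, adjusted p = 0.102, 0.200 and 0.626), where 2.14% of probe sets were called. An unadjusted p under 0.05 was found for 2 of the 3 and for 18.9% of probe sets. Without LD hour 10 Act87E passed this test (2.04 log2, adjusted p = 0.0363). With the completeness signal in the fit the values were 0.89 for Act87E, 0.26 for Act79B and 0.23 for Act88F (limma, adjusted p = 0.879, 0.980 and 0.986).

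Across the 12 arrays the actin transcripts moved together. The levels of Act87E and Act79B had a Pearson's r of 0.962 (permutation p = 1.0e-05, the smallest that 100000 permutations can give, and 9.0e-05 adjusted over 9 relations) and a Spearman's rho of 0.993 (permutation p = 1.0e-05, adjusted 9.0e-05). Without the 2 arrays farthest from the median r was 0.939, and within the regimes it was 0.940 in DD and 0.979 in LD. Both probe sets carry the suffix for shared probes, so they may partly read the same RNA. Act88F had r = 0.869 with Act79B (permutation p = 9.0e-05, adjusted 4.05e-04; rho = 0.874, permutation p = 4.7e-04, adjusted 0.00211) and r = 0.820 with Act87E (permutation p = 4.7e-04, adjusted 0.00141; rho = 0.853, permutation p = 7.5e-04, adjusted 0.00225). Those 2 values were 0.854 and 0.721 without the 2 farthest arrays, 0.606 and 0.662 in DD, and 0.939 and 0.913 in LD. Arrays of neighbouring hours are not independent of each other, and the permutations do not allow for that.

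The 5′ minus 3′ signal moved with Act79B and Act87E. Act87E had r = 0.762 with it (permutation p = 0.00249, adjusted 0.0056; rho = 0.594, permutation p = 0.0445, adjusted 0.0802) and Act79B had r = 0.753 (permutation p = 0.00413, adjusted 0.00743; rho = 0.615, permutation p = 0.0367, adjusted 0.0802). The rank relations missed the threshold after adjustment. Once the 2 arrays with the most extreme signal were omitted, r was 0.603 for Act87E and 0.394 for Act79B, and within the regimes it was 0.850 and 0.905 in DD and 0.681 and 0.595 in LD. Act88F had r = 0.400 (permutation p = 0.183, adjusted 0.274; rho = 0.350, permutation p = 0.264, adjusted 0.340), with 0.262 in DD and 0.474 in LD, and 0.200 without the 2 farthest arrays. An actin transcript is among the controls behind this signal, so the signal may not be independent of the actin family. The part of the signal in the actin levels was not tested beyond the covariate.

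A list of 5 genes taken as markers of flight muscle of the thorax was followed, all of them measured. These were TpnC4 and fln, a troponin C and a thick filament protein of the indirect flight muscle, and Strn-Mlck, sals and Mf. Whether Strn-Mlck, sals and Mf are particular to flight muscle was not tested. The mean level of all 5 lay between 5.36 and 5.75 in DD and between 5.51 and 5.69 in LD. It thus spanned 0.38 log2 in DD and 0.18 log2 in LD. On all 12 arrays TpnC4 stayed between 2.31 and 2.60, fln between 2.99 and 3.48, sals between 5.08 and 5.84, Strn-Mlck between 6.85 and 7.29, and Mf between 9.04 and 9.96. The first 2 lay below the mean level of the median probe set, 5.39, and Strn-Mlck and Mf above it. TpnC4 was as low as the accessory gland gene Acp26Aa (2.26 to 2.60), so it could show little change. The samples were heads, and the narrow span of the marker mean does not show how much muscle RNA each array held. Act88F spanned 2.60 log2. Its r with the marker mean was 0.358 (permutation p = 0.25, adjusted 0.322; rho = 0.385, permutation p = 0.218, adjusted 0.326), with 0.213 in DD and 0.731 in LD, and 0.554 without the 2 farthest arrays. For Act79B r was −0.066 (permutation p = 0.840, adjusted 0.840; rho = 0.035, permutation p = 0.919, adjusted 0.919), with −0.607 in DD, 0.474 in LD and 0.160 without the 2 farthest arrays. For Act87E r was −0.084 (permutation p = 0.794, adjusted 0.840; rho = 0.049, permutation p = 0.884, adjusted 0.919), with −0.574 in DD, 0.483 in LD and 0.202 without the 2 farthest arrays. The maximum of the LD marker mean was at hour 14, where all 3 actins had theirs. Taken singly, sals had r = −0.52 with Act79B, −0.50 with Act87E and −0.19 with Act88F. The values of the other markers are given below.

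**Figure D4:**
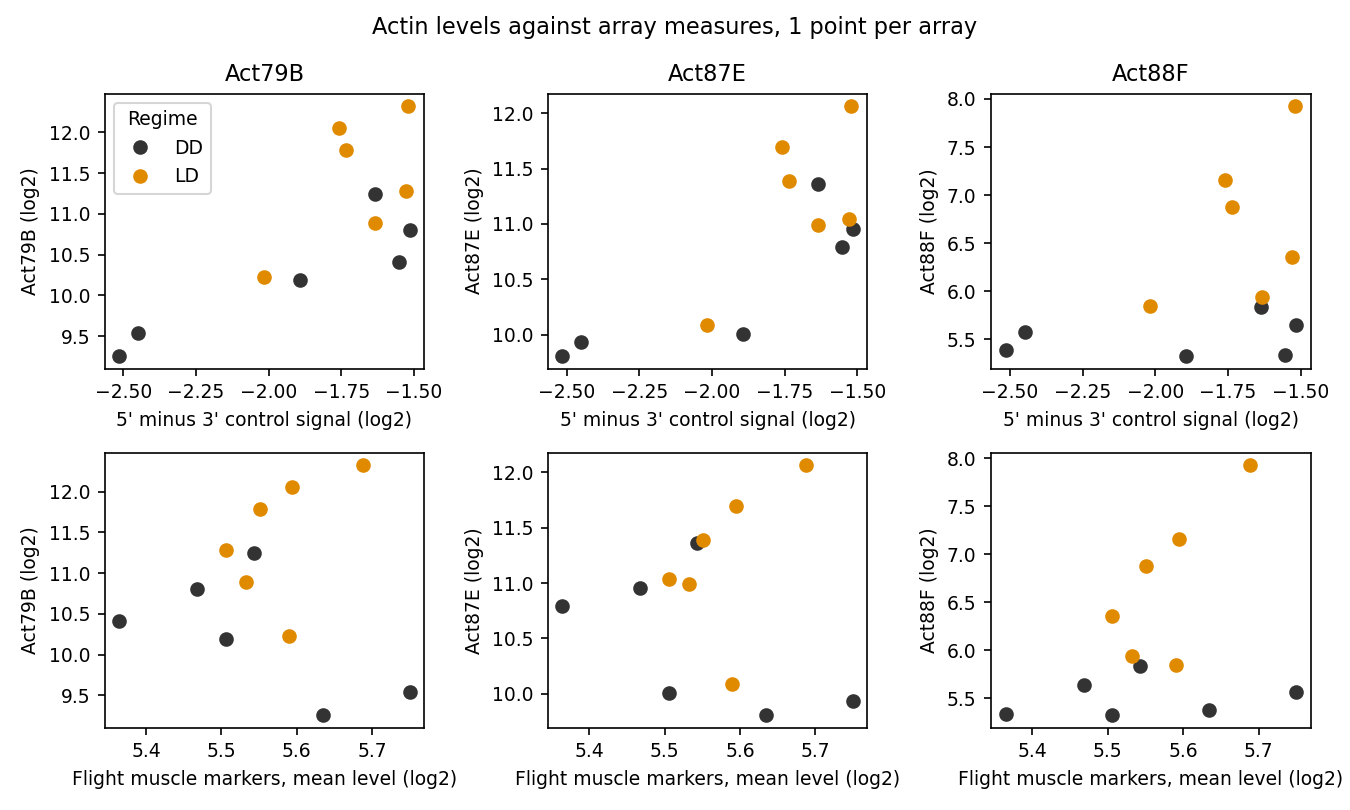
Log2 level of each actin (vertical axes) on each array against the 5′ minus 3′ control signal (top row) and against the mean level of 5 flight muscle markers (bottom row), DD in dark grey and LD in orange. The 2 arrays with a signal near −2.5 have low Act79B and Act87E, and Act88F spans 2.60 log2 while the marker mean spans 0.38.

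The partners of actin in the sarcomere were described from a list of 25 genes for thin and thick filaments and the Z disc, of which 19 were measured, 4 of them also flight muscle markers. None was called in any of the 8 limma tests. At an unadjusted p under 0.05 stood 8 for the LD curve (5.66% of all probe sets), 5 for the DD curve (11.5%), 7 for the difference of the curves (9.96%) and 4 for a common curve (4.68%). For the mean level there were 5 (6.82%), for day minus night 4 in DD (18.2%) and 1 in LD (5.76%), and 4 for the difference of those (18.9%). In LD 15 of the 19 (78.9%) had their fitted peak within 3 h of the median actin peak of hour 13.3, against 26.9% of all probe sets. In DD 14 of the 19 (73.7%) peaked within 3 h of hour 5.87, against 26.9% of all probe sets. The median DD day minus DD night difference of the list was 0.34 log2, with 0.17 without DD hour 6 and 0.04 with the completeness signal in the fit. The 3 h window was chosen after the values were seen. The median amplitude of the list was 0.32 log2 in DD and 0.40 in LD, against 0.11 and 0.09 over all probe sets. Averaged over the day, 17 of the 19 had a lower level in DD, with a median of −0.14 log2, against 51.9% and a median of −0.0045 over all probe sets. That median moved by over 1.5 times without DD hour 14 (−0.07), LD hour 14 (−0.08), DD hour 6 (−0.25) or LD hour 2 (−0.23), with the dimmer probe sets left out of the fit (−0.24) and with the 4 least complete arrays omitted (−0.27).

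The 4 of these genes described here are those with the smallest p for the change of the curve. The tropomyosin gene Tm2 and the troponin T gene up, both of the thin filament, had the largest curves among them. Tm2 had levels of 7.31, 7.94, 7.35, 6.22, 6.56 and 6.47 at DD hours 2 to 22, against 6.46, 7.69, 8.09, 8.67, 7.80 and 7.46 at LD hours 2 to 22. Its amplitude was 0.79 ± 0.16 log2 at hour 5.71 in DD and 0.87 ± 0.16 at hour 13.3 in LD, with a difference of 1.40 ± 0.23 (limma, adjusted p = 0.228). For up the amplitude was 1.05 ± 0.19 at hour 6.17 in DD and 0.92 ± 0.19 at hour 12.6 in LD (difference 1.47 ± 0.27, limma, adjusted p = 0.246). The LIM protein gene Mlp84B of the Z disc had 0.42 ± 0.13 at hour 6.23 in DD and 0.53 ± 0.13 at hour 15.5 in LD (adjusted p = 0.278). The myosin light chain gene Mlc1 had 0.54 ± 0.18 at hour 4.21 in DD and 0.79 ± 0.18 at hour 12.9 in LD (adjusted p = 0.288). The fitted peaks of all 4 lay within 3 h of those of Act79B and Act87E on both days.

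Measured as r over the 12 arrays, and as a description, the likeness of the list to the actins was uneven. The median r of the 19 genes was 0.67 with Act87E, 0.66 with Act79B and 0.49 with Act88F, against medians between −0.03 and −0.01 over 10841 genes. An r over 0.9 was reached by Tm2 and up with both Act87E (0.981 and 0.965) and Act79B (0.912 and 0.928), and by no listed gene with Act88F, for which the highest was Prm (0.868), the gene of the thick filament protein paramyosin. Of all genes 0.544%, 0.157% and 0.0553% had an r over 0.9 with Act87E, Act79B and Act88F. The list also holds 4 of the flight muscle markers. With Act87E, Act79B and Act88F r was 0.26, 0.22 and 0.49 for Mf, 0.11, 0.17 and 0.38 for Strn-Mlck, 0.06, 0.16 and 0.29 for TpnC4, and −0.33, −0.23 and 0.04 for fln.

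**Figure D5:**
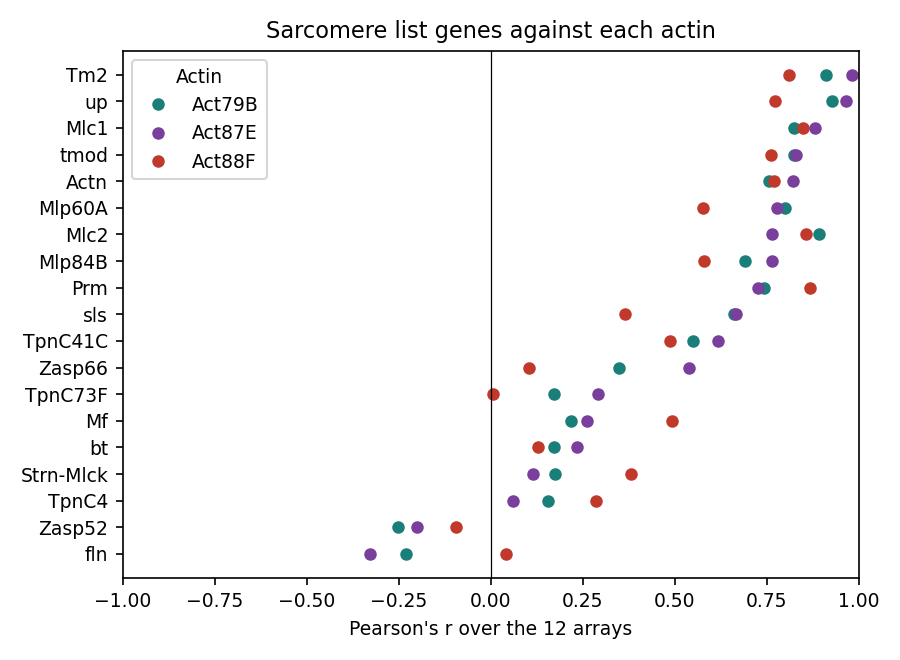
Pearson's r over the 12 arrays (horizontal axis) between each of the 19 measured sarcomere list genes (rows) and each actin (colours). Tm2 and up lie above 0.9 for Act79B and Act87E, and the values reach down to −0.33 for fln with Act87E.

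The 3 genes most like each actin by r were taken from all 10841 others. For Act87E these were KFase (r = 0.982), which encodes kynurenine formamidase of tryptophan breakdown, Tm2 (0.981) and mle (0.970), which encodes an RNA helicase of dosage compensation. For Act79B they were mle (0.943), ple (0.932), which encodes tyrosine hydroxylase, and KFase (0.930). The level of KFase lay between 6.57 and 7.09, and that of mle between 4.01 and 4.66, since r measures likeness of shape and not of size. For Act88F they were Loxl2 (0.955), a lysyl oxidase gene, Vajk3 (0.925), a cuticle protein gene that spanned 5.27 to 9.03, and CG10936 (0.919). Within DD the r of these 3 with Act88F was 0.505, 0.861 and 0.679, and within LD 0.983, 0.857 and 0.858. All these values share the same arrays and their differences in RNA completeness.

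Genes that control actin filaments, from a list of 31 of which 23 were measured, are described next. In LD 5 of the 23 (21.7%) peaked within 3 h of the median actin peak, and in DD 5 (21.7%) did, against 26.9% of all probe sets on either day. At an unadjusted p under 0.05 stood 7 for the LD curve (5.66% of all probe sets) and 8 for the DD curve (11.5%). For the difference of the curves there were 10 (9.96%), for a common curve 1 (4.68%) and for the mean level 0 (6.82%). Day minus night gave 7 in DD (18.2%), 5 in LD (5.76%) and 8 for the difference of those (18.9%). The median amplitude of the list was 0.17 log2 in DD and 0.19 in LD, against 0.11 and 0.09 over all probe sets. Averaged over the day, 15 of the 23 had a higher level in DD, with a median of 0.03 log2, against 48.1% and a median of −0.0045 over all probe sets. That median was 0.01 without LD hour 10, 0.02 without DD hour 18, 0.04 without DD hour 22 and −0.0054 with the 4 least complete arrays omitted. The 4 with the smallest p for a common rhythm were sn, the gene of the bundling protein fascin (0.21 ± 0.07 log2, hour 18.6), Arpc5 of the branching complex Arp2/3 (0.13 ± 0.05, hour 6.79), cpa of capping protein (0.11 ± 0.04, hour 13.6) and flr (0.17 ± 0.07, hour 13.4), whose product aids disassembly (limma, adjusted p = 0.967 for each). In the 8 tests 1 member was called. Moe, the gene of moesin, which ties actin to the membrane, was lower in the day than in the night of DD.

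Moe had 6.47, 6.77 and 6.73 at DD hours 2, 6 and 10 and 7.30, 7.44 and 7.29 at DD hours 14, 18 and 22, against 7.13, 6.56, 6.73, 6.62, 6.85 and 6.62 at LD hours 2 to 22. The DD day and DD night arrays did not overlap. The share of all probe sets that separated in this direction was not counted, so the separation has no background to be set against. A lower mean in the DD day than in the DD night was found for 54.1% of all probe sets. The DD day minus DD night difference was −0.69 ± 0.14 log2 (limma, adjusted p = 0.0451), in a contrast where 0.408% of probe sets were called as lower. With the completeness signal in the fit it was −0.29 ± 0.20 (adjusted p = 0.999), and without LD hour 14, 18 or 22 the call was lost at an unchanged difference (adjusted p = 0.0569 to 0.0709). It was also lost without any DD array but hour 14 (adjusted p = 0.0898 to 0.158). Of the actin-related protein genes, 2 of 7 were measured, Arp8 and Arp10, and neither was called, with common amplitudes of 0.16 and 0.11 log2.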

How the data were processed

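Each sample was hybridised to 1 Affymetrix array. The authors deposited log2 values, made by RMA per the submitters' processing notes, and these were used without a filter. Neither the RMA version nor any joint normalization with other arrays is stated in those notes. Of 14010 probe sets, 44 controls were set aside and 13966 were tested. Of the 13966, 12443 had 1 gene symbol in the probe annotation, 327 several and 1196 none. Symbols were updated by NCBI gene number through the RefSeq gene table, and no genome positions were used. Where a list gene had several probe sets, the brightest stood for it.

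Models were fitted with limma (version 3.58.1, R 4.3.3), with Benjamini-Hochberg adjustment over all 13966 probe sets and a threshold of 0.05. They were a 24 h cosine and sine with a regime term (8 residual degrees of freedom), a curve per regime (6), and 4 groups of 3 arrays (8). Errors of fitted values are standard errors. Permutation tests of correlations were two-sided.

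The members and gene lists were chosen with earlier results of these data known. Named were all members, the 4 genes of the sarcomere list with the smallest p for the difference of the curves, the 4 of the regulator list with the smallest p for a common rhythm, each measured actin-related protein gene, and the 3 genes most like each member. Moe, Prm and fln were named after their values were seen. Omitting the 4 arrays of lowest 5′ signal was chosen after the data were seen, and the closing section gives the effect of all alternatives. The scripts were checked on simulated data.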

Additional observations from a re-analysis of the deposited data

How the results depend on the processing

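The alternatives for every test were a second quantile normalization, arrays centred on their medians, only the probe sets above the median brightness, an intensity trend with a robust prior, RNA completeness in the fit, and each array left out. The number of actin probe sets called in LD was 1, and 0 with RNA completeness in the fit, with the LD arrays alone and with the 4 least complete arrays omitted, which was chosen after the data were seen. With single arrays left out it ranged from 0 to 3 in LD, from 0 to 1 in DD, from 0 to 2 for the difference of the curves, and from 0 to 1 for day minus night in DD and for its difference from LD, and it was 0 in the other tests. With hour of day as a replicate block the DD minus LD difference of Act88F was −1.17 ± 0.31 log2 (limma, adjusted p = 0.593), and no actin was called, as without the block. Deviations of DD and LD arrays of the same hour had r between −0.44 and 0.15 over all probe sets, so the arrays share only an hour.

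Some values changed sign. Day minus night in DD was −0.16 for Act88F with RNA completeness in the fit. Day minus night in LD, with single arrays left out, ranged from −0.91 to 0.0043 for Act79B (the highest without LD hour 2) and from −0.95 to 0.045 for Act88F (the highest without LD hour 14). With the 4 arrays omitted it was 0.0043 for Act79B. The correlation with flight muscle markers ranged from −0.322 to 0.25 for Act79B and from −0.368 to 0.189 for Act87E, and was 0.063 and 0.019 without DD hour 18. The causes were not tested. Of the other member values, 412 kept direction and side of the threshold, 12 passed it newly and 7 lost it. Size was not counted, and most values kept their side by staying uncalled. Those kept include day minus night in DD for Act79B, which was 1.16 in the main fit and 0.0021 with RNA completeness in the fit. Some list medians moved as well, by the amounts given with the lists. The number of arrays and the low 5′ signal of the DD night limit all comparisons within DD.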
